A study of Mus musculus with 20 samples.

Results

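The expression of 35 genes of the endoplasmic reticulum (ER) was followed in mouse eosinophils given the alarm cytokine IL-33, in cells with and without the ERK phosphatase gene Dusp5. They were chosen by symbol as genes that fold proteins in the ER, carry nascent chains into it, clear misfolded ones from it, or sense and answer protein overload there. Of the 35 genes, 34 had a probe set (a group of probes read as 1 value) that the platform annotation gives to that gene alone. Sec61b, a small subunit of the translocation channel, lay only on a probe set shared with another gene and was given no value. Hyou1, a large Hsp70 that exchanges the nucleotide of BiP, exceeded the brightness filter on 1 array and was not tested. This left 33 of the 11766 genes tested, out of 17771 on the array with a probe set of their own, and all 33 were brighter than the filter level on every array.

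Proteins that enter the ER are folded by BiP, Grp94, lectin chaperones and protein disulfide isomerases, and those that fail are drawn back to the cytosol for degradation. Overload is sensed by 3 membrane proteins, IRE1, PERK and ATF6, whose signals run through XBP1, ATF4 and cleaved ATF6 to the genes of chaperones, degradation factors and CHOP (the unfolded protein response). Eosinophils pass large amounts of granule protein through the ER as they mature, and in mice their development is known to need XBP1. The arrays read mRNA only, so splicing of Xbp1, cleavage of ATF6, phosphorylation of PERK and translation of Atf4 were outside the measurement.

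The cells were eosinophils grown from bone marrow, taken on culture day 12 from 5 Dusp5-/- mice (knockout) and 5 Dusp5+/+ mice (wild type). Cells of each mouse were stimulated with 25 ng/ml IL-33 for 4 h or kept in medium, which gave 4 groups of 5 arrays: Dusp5-/- with IL-33, Dusp5-/- untreated, Dusp5+/+ with IL-33 and Dusp5+/+ untreated. The sources used here do not say how the Dusp5 allele was made or how the cultures were set up. Values are deposited log2 expression, changes are log2 differences ± SE of a limma fit over all 20 arrays, and a gene was called at a Benjamini-Hochberg adjusted p under 0.05 over the 11766 genes. The Dusp5 transcript itself averaged 4.95 ± 0.18 (SD, n = 5) in Dusp5-/- cells with IL-33 and 4.40 ± 0.31 in untreated Dusp5-/- cells, against 9.77 ± 0.35 and 8.15 ± 0.26 in Dusp5+/+ cells with and without IL-33. The eosinophil granule genes Epx and Prg2 had group means of 13.26 to 13.52 and 13.76 to 13.82. Siglecf, the eosinophil surface lectin, had group means of 9.75 to 10.61. Of the B and plasma cell markers, Jchain did not pass the brightness filter and 7 did, among them Ighm with group means of 8.74 to 10.68.

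Arrays of the same number and genotype, with and without IL-33, were taken as the 2 cultures of 1 mouse, since the series text gives 5 mice per genotype and each such pair deviated together. Results are therefore given from the fit of 4 group means and, where the call differed, also from a fit with each mouse as a block. The fit of group means sets a change against the spread of levels between the 5 mice of a group. A fixed block takes out the level of each mouse, so its error measures how the within-mouse IL-33 change varied between mice. Counts of mice that moved 1 way rest on the same within-mouse changes. The share of all genes that moved 1 way in every mouse was not counted.

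**Figure D1:**
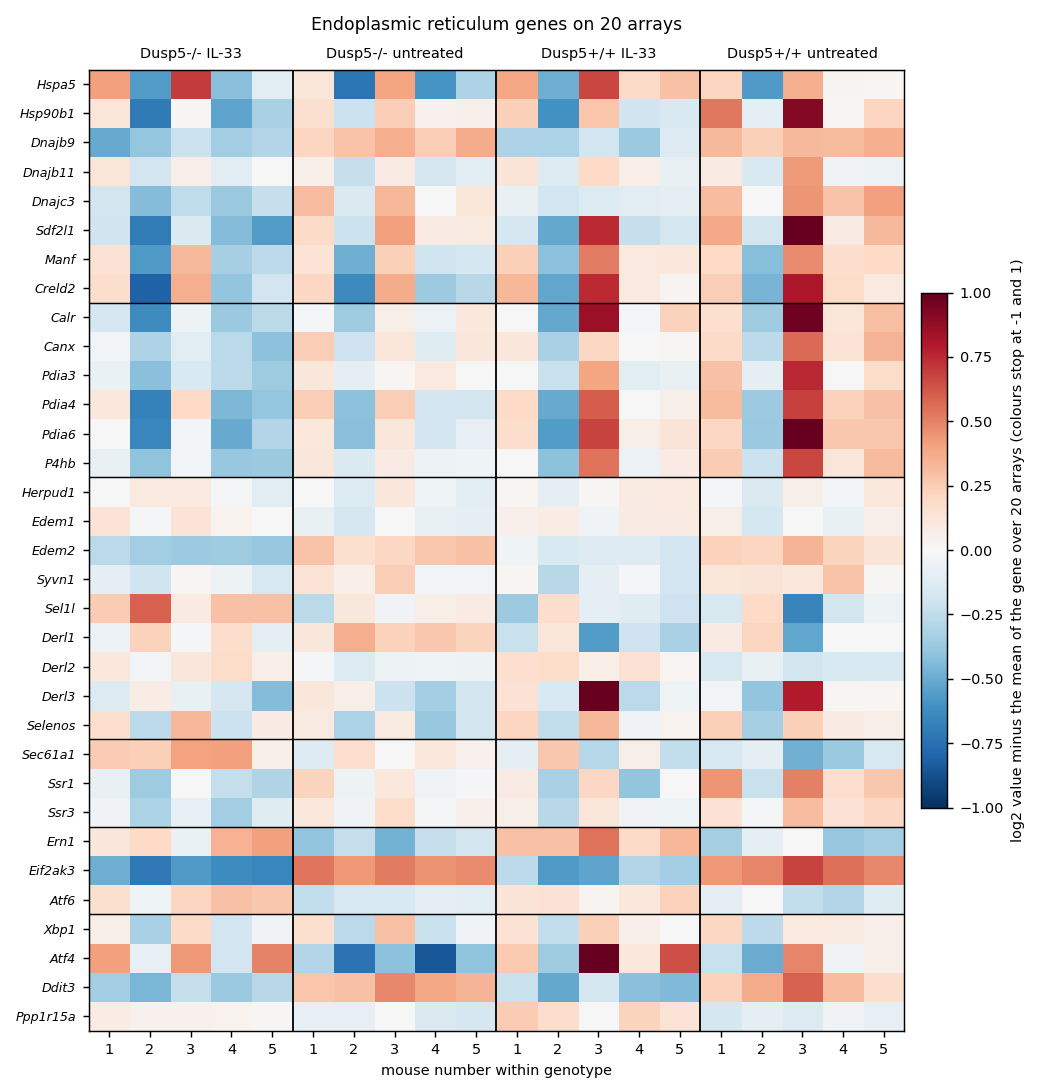
Each row is 1 of the 33 tested ER genes, each column 1 array, grouped as Dusp5-/- with IL-33, Dusp5-/- untreated, Dusp5+/+ with IL-33 and Dusp5+/+ untreated. Colour is the log2 value minus the mean of that gene over the 20 arrays, and black lines part the roles. Most folding genes in the upper 2 blocks follow the mouse number (mouse 2 low and mouse 3 high in both genotypes), whereas Eif2ak3, Ddit3, Ern1, Atf6, Dnajb9 and Edem2 follow the treatment.

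All 3 stress sensors were called with IL-33 in both genotypes, and not in 1 direction. Calls were common, at 52.2% of all genes in Dusp5-/- and 42.7% in Dusp5+/+ cells. Eif2ak3 (PERK) fell by 1.09 on the log2 scale in Dusp5-/- cells and by 0.93 in Dusp5+/+ cells, while Ern1 (IRE1 alpha) and Atf6 rose by 0.28 to 0.56. Of the transcription factors downstream, Ddit3 (CHOP) fell in both genotypes, Atf4 rose in Dusp5-/- cells and Xbp1 did not pass the test. In these bulk samples, fewer cells of a type and less RNA per cell cannot be told apart.

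Eif2ak3 encodes PERK, the kinase that phosphorylates eIF2 alpha and so slows translation. Its log2 values on the 5 arrays, mice 1 to 5, were 7.93, 7.71, 7.85, 7.79 and 7.77 in Dusp5-/- cells with IL-33, against 8.96, 8.85, 8.94, 8.87 and 8.90 in the same mice untreated. In Dusp5+/+ cells they were 8.16, 7.85, 7.90, 8.13 and 8.08 with IL-33, against 8.86, 8.91, 9.10, 8.97 and 8.90 untreated. Every IL-33 array lay below every untreated array of its genotype. The change was -1.09 ± 0.07 in Dusp5-/- cells (2.13-fold lower, adjusted p = 9.3e-11) and -0.93 ± 0.07 in Dusp5+/+ cells (1.9-fold lower, adjusted p = 1.6e-09). It was the largest change of any of the 33 genes in both genotypes. The genotype difference of these changes was -0.17 ± 0.10 and did not pass (adjusted p = 0.9986, limma interaction).

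Ern1 encodes IRE1 alpha, the kinase and RNase that splices Xbp1 mRNA. Its values were 8.78, 8.87, 8.61, 9.02 and 9.07 in Dusp5-/- cells with IL-33, against 8.27, 8.43, 8.19, 8.44 and 8.48 untreated. In Dusp5+/+ cells they were 8.96, 8.96, 9.21, 8.86 and 8.996 with IL-33, against 8.34, 8.58, 8.67, 8.29 and 8.33 untreated. No IL-33 array overlapped the untreated arrays of its genotype, and the rise was 0.51 ± 0.10 in Dusp5-/- cells (adjusted p = 2.3e-04) and 0.56 ± 0.10 in Dusp5+/+ cells (adjusted p = 1.3e-04).

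Atf6, the membrane-bound factor released by cleavage in the Golgi, rose by less. It read 6.93, 6.72, 6.98, 7.06 and 7.04 in Dusp5-/- cells with IL-33, against 6.52, 6.61, 6.62, 6.67 and 6.66 untreated. The Dusp5+/+ arrays read 6.90, 6.91, 6.79, 6.88 and 7.003 with IL-33, against 6.67, 6.78, 6.52, 6.48 and 6.65 untreated. The groups were again apart in both genotypes, though in Dusp5+/+ cells the gap between the lowest IL-33 array and the highest untreated array was narrow. The rise was 0.33 ± 0.07 (adjusted p = 6.2e-04) in Dusp5-/- and 0.28 ± 0.07 (adjusted p = 0.00387) in Dusp5+/+ cells.

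Among the transcription factors, Ddit3 encodes CHOP, a factor linked to cell death under prolonged stress. It stood at 7.29, 7.18, 7.39, 7.26 and 7.35 in Dusp5-/- cells with IL-33, against 7.91, 7.92, 8.12, 8.02 and 7.98 untreated. Dusp5+/+ cells had 7.41, 7.13, 7.46, 7.22 and 7.20 with IL-33, against 7.86, 8.01, 8.22, 7.95 and 7.81 untreated. All 10 mice had less Ddit3 mRNA after IL-33, with no overlap between groups. The change was close in the genotypes, -0.70 ± 0.08 in Dusp5-/- (adjusted p = 6.0e-07) and -0.69 ± 0.08 in Dusp5+/+ cells (adjusted p = 1.1e-06).

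Atf4, the factor whose translation rises when eIF2 alpha is phosphorylated, had wider replicates. Its values were 9.23, 8.74, 9.26, 8.63 and 9.32 in Dusp5-/- cells with IL-33, against 8.53, 8.09, 8.42, 7.97 and 8.42 untreated. In Dusp5+/+ cells they were 9.08, 8.47, 9.99, 8.93 and 9.47 with IL-33, against 8.60, 8.33, 9.31, 8.79 and 8.87 untreated. The Dusp5-/- groups did not overlap and the Dusp5+/+ groups did, although the IL-33 array was the higher of the pair in all 10 mice. The rise passed in Dusp5-/- cells (0.75 ± 0.23, adjusted p = 0.00916) and not in Dusp5+/+ cells (0.41 ± 0.23, adjusted p = 0.16). With each mouse as a block the Dusp5+/+ value passed too (SE 0.08, adjusted p = 9.1e-04). Of 30 limma fits of group means that left out 1 array or mouse, it failed in 29 (adjusted p of 0.0705 to 0.449). It passed in 1, without the Dusp5+/+ IL-33 array of mouse 2 (0.59, adjusted p = 0.0355). The interaction was 0.34 ± 0.32 (adjusted p = 0.9986), so a genotype difference in the Atf4 response was not shown. The Atf4 probe set is of a type in which some probes can bind unrelated transcripts.

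Xbp1, the substrate of IRE1, stayed within its spread in total mRNA. It lay at 11.11 to 11.62 in Dusp5-/- cells with IL-33, against 11.16 to 11.72 untreated, and at 11.19 to 11.67 in Dusp5+/+ cells with IL-33, against 11.17 to 11.64 untreated. The 95% interval of the change was -0.30 to 0.21 in Dusp5-/- and -0.26 to 0.26 in Dusp5+/+ cells. The probe set does not separate spliced from unspliced mRNA.

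Ppp1r15a (GADD34), the phosphatase subunit that ends PERK signalling by removing the phosphate from eIF2 alpha, rose slightly. Its values were 7.34, 7.31, 7.31, 7.30 and 7.28 in Dusp5-/- cells with IL-33, against 7.18, 7.19, 7.27, 7.12 and 7.10 untreated. In Dusp5+/+ cells they were 7.52, 7.44, 7.26, 7.49 and 7.41 with IL-33, against 7.09, 7.17, 7.13, 7.23 and 7.19 untreated. The groups did not overlap in either genotype. The rise was 0.14 ± 0.06 in Dusp5-/- cells (adjusted p = 0.0483) and 0.26 ± 0.06 in Dusp5+/+ cells (adjusted p = 9.0e-04). The Dusp5-/- value lay just inside the threshold and kept its call in 6 of 30 fits that left out 1 array or mouse (without the Dusp5-/- untreated array of mouse 3, the Dusp5+/+ IL-33 array of mouse 1 or 3, Dusp5-/- mouse 3, or Dusp5+/+ mouse 1 or 3), with adjusted p of 0.0507 to 0.126 in the other 24. With each mouse as a block it passed at 0.0292.

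**Figure D2:**
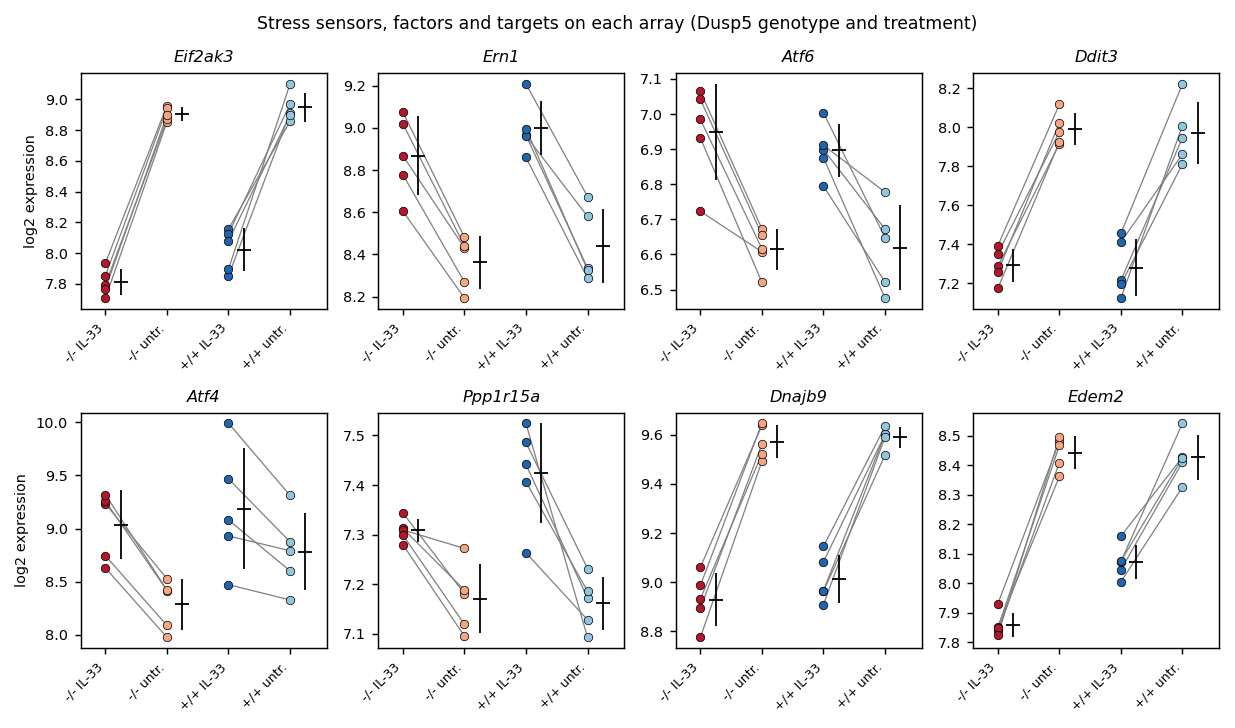
Log2 expression on each array for 8 ER genes (y axis), in Dusp5-/- with IL-33, Dusp5-/- untreated, Dusp5+/+ with IL-33 and Dusp5+/+ untreated cells from left to right. Dots are arrays, grey lines join the 2 arrays of a mouse, and the bar beside each group is the mean ± SD of 5 arrays. IL-33 arrays lie apart from untreated arrays in both genotypes for every gene shown but Atf4, which overlaps in Dusp5+/+ cells.

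Counted over the 33 genes, IL-33 raised 5 and lowered 6 in Dusp5-/- cells, and raised 4 and lowered 6 in Dusp5+/+ cells. The share called, 33.3% in Dusp5-/- cells, was below the 52.2% called among all genes tested (18.9% higher and 33.2% lower). In Dusp5+/+ cells 30.3% of the members were called, against 42.7% of all genes (16.1% higher and 26.7% lower). The members' median change was -0.17 in Dusp5-/- and -0.13 in Dusp5+/+ cells, beside -0.08 and -0.05 over all genes. Of the 33 genes, 9 had IL-33 and untreated arrays that did not overlap in Dusp5-/- cells, and 9 in Dusp5+/+ cells, against 38.5% and 28.3% of all genes. After quantile normalization 8 were higher and 6 lower in Dusp5-/- cells, beside 2675 and 3224 of the 11766 genes. Median centring gave 3 and 7, beside 2110 and 4048 of all genes. Without either step, 2228 of all genes were higher and 3909 lower. The number of higher members was 3 in Dusp5-/- cells without the untreated array of mouse 2, the IL-33 array of mouse 1 or 4, or all of Dusp5-/- mouse 1 or 4. The number of lower members was 10 in Dusp5+/+ cells without the untreated array of mouse 2 or the IL-33 array of mouse 3. The shares of all genes called in fits that left out an array or mouse are not given.

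With each mouse as a block, the counts grew to 10 higher and 17 lower in Dusp5-/- cells (81.8% of the members, against 65.5% of all genes, 23.5% higher and 42.0% lower) and to 6 higher and 17 lower in Dusp5+/+ cells (69.7%, against 57.8% of all genes, 20.8% higher and 37.0% lower). Treating the mouse as a random effect gave 8 higher and 14 lower in Dusp5-/- cells (among all genes 65.4%, 24.8% higher and 40.7% lower) and 6 higher and 12 lower in Dusp5+/+ cells (among all genes 56.9%, 21.7% higher and 35.2% lower). With the fixed block 11 of the 14 tested folding genes were called in each genotype, against 2 without it. Calls over all genes rose as well, from 52.2% in Dusp5-/- and 42.7% in Dusp5+/+ cells to the shares above. The size of a change does not depend on the block, and only its error does.

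**Figure D3:**
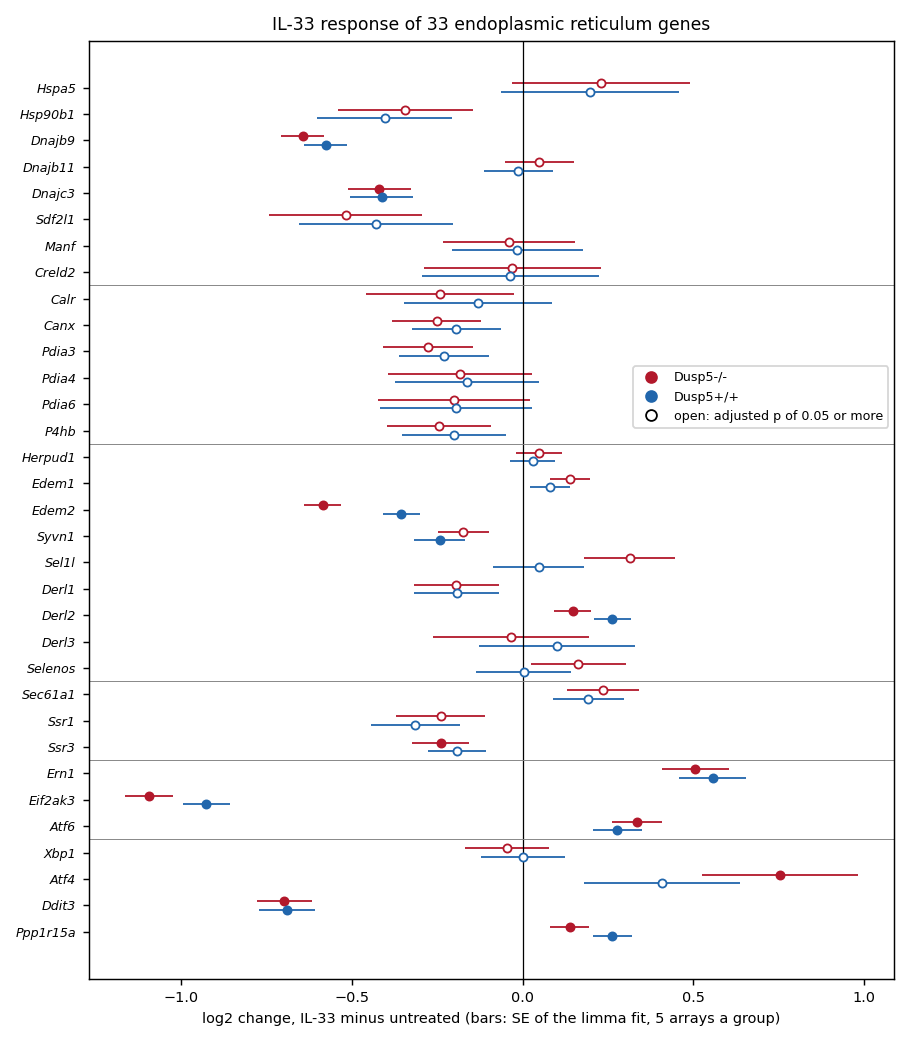
Log2 change with IL-33 (x axis, IL-33 minus untreated) for the 33 ER genes by role, Dusp5-/- in red and Dusp5+/+ in blue. Bars are the SE of the limma fit, filled points have an adjusted p under 0.05. The 3 sensors are filled in both genotypes, and Hspa5 and Creld2 have the widest bars.

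Among the chaperones of the ER lumen and their partners, 2 J-domain proteins that hand clients to BiP fell in both genotypes. Dnajb9 (ERdj4), which in mice also holds IRE1 inactive, read 8.78, 8.89, 9.06, 8.93 and 8.99 in Dusp5-/- cells with IL-33, against 9.49, 9.56, 9.64, 9.52 and 9.65 untreated. In Dusp5+/+ cells it read 8.97, 8.96, 9.08, 8.91 and 9.15 with IL-33, against 9.60, 9.52, 9.60, 9.59 and 9.63 untreated. Every IL-33 array was lower than every untreated one. The change was -0.64 ± 0.06 (adjusted p = 5.2e-08) in Dusp5-/- and -0.58 ± 0.06 (adjusted p = 3.8e-07) in Dusp5+/+ cells. Dnajc3 (p58IPK), also known as an inhibitor of PERK, ran at 7.07 to 7.32 in Dusp5-/- cells with IL-33, against 7.36 to 7.84 untreated. Its range was 7.32 to 7.43 in Dusp5+/+ cells with IL-33, against 7.51 to 7.95 untreated. The 2 groups were apart in each genotype, with changes of -0.42 ± 0.09 (adjusted p = 7.8e-04) in Dusp5-/- and -0.41 ± 0.09 (adjusted p = 0.00122) in Dusp5+/+ cells. Dnajb11 (ERdj3), the third J-domain protein, changed by 0.05 ± 0.10 and -0.01 ± 0.10 in the same order and did not pass.

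Hspa5 encodes BiP, the central Hsp70 of the ER and the usual readout of ER stress. Its values were 11.02, 10.05, 11.31, 10.20 and 10.51 for mice 1 to 5 in Dusp5-/- cells with IL-33, against 10.73, 9.88, 11.01, 10.03 and 10.30 untreated. In Dusp5+/+ cells they were 10.998, 10.12, 11.28, 10.81 and 10.90 with IL-33, against 10.83, 10.05, 10.98, 10.64 and 10.63 untreated. The mice spanned more than 1 log2 unit within a group in Dusp5-/- cells, the groups overlapped, and yet the IL-33 array was the higher of the pair in 10 of 10 mice, by 0.07 to 0.31. The fit of group means gave 0.23 ± 0.26 in Dusp5-/- (adjusted p = 0.477) and 0.20 ± 0.26 in Dusp5+/+ cells (adjusted p = 0.569), neither called. With each mouse as a block the SE was 0.05 and both passed, at 0.00111 and 0.00382. As a random effect, with 1 correlation set for all genes, the adjusted p was 0.209 and 0.298.

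Sdf2l1, a lumenal partner of ERdj3, showed the same layout with the opposite sign. It read 8.88, 8.37, 8.93, 8.64 and 8.52 in Dusp5-/- cells with IL-33, against 9.27, 8.86, 9.48, 9.16 and 9.17 untreated. Dusp5+/+ cells had 8.91, 8.56, 9.82, 8.85 and 8.90 with IL-33, against 9.46, 8.89, 10.28, 9.16 and 9.40 untreated. All 10 mice had the lower value after IL-33, but the groups overlapped. The changes of -0.52 ± 0.22 in Dusp5-/- (adjusted p = 0.0595) and -0.43 ± 0.22 in Dusp5+/+ cells (adjusted p = 0.133) passed with each mouse as a block (2.9e-06 and 2.2e-05). The Dusp5-/- value also passed without the untreated array of mouse 2 of either genotype, the untreated or IL-33 array of Dusp5+/+ mouse 3, or all of Dusp5+/+ mouse 2 (highest adjusted p = 0.0466), and the Dusp5+/+ value without the IL-33 array of its mouse 3. Both passed without Dusp5+/+ mouse 3 (adjusted p = 0.00306 in Dusp5-/- and 0.0318 in Dusp5+/+ cells). Hsp90b1 (Grp94), the Hsp90 of the ER, changed by -0.34 ± 0.20 in Dusp5-/- and -0.40 ± 0.20 in Dusp5+/+ cells, was lower in 10 of 10 mice and passed with the block (adjusted p = 0.00217 and 8.3e-04). The Dusp5+/+ value also passed without the untreated array of its mouse 2 (adjusted p = 0.0487). Manf and Creld2, small proteins induced by ER stress, changed by -0.04 and -0.03 in Dusp5-/- and by -0.01 and -0.04 in Dusp5+/+ cells and were called neither without a block nor with a fixed or random one. For Manf the IL-33 array was the higher one in 5 mice and the lower one in 5.

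The 6 lectin chaperones and disulfide isomerases moved by similar small amounts. Calr (calreticulin) and Canx (calnexin) hold glycoproteins while they fold, and Pdia3, Pdia4, Pdia6 and P4hb form and rearrange disulfide bonds. None of the 6 was called from the group means, with changes of -0.28 to -0.18 in Dusp5-/- and -0.23 to -0.13 in Dusp5+/+ cells. From the same fit 52.2% and 42.7% of all genes were called, in that order. Each of the 6 was lower after IL-33 in 10 of 10 mice, a count from the same paired values that the block uses. With each mouse as a block all 6 fell, at adjusted p of 6.3e-04 to 0.00748 in Dusp5-/- and 0.00293 to 0.0391 in Dusp5+/+ cells. Among all genes 42.0% fell with that block in Dusp5-/- and 37.0% in Dusp5+/+ cells. With the mouse as a random effect 3 of the 6 fell in Dusp5-/- cells (Canx, P4hb and Pdia3) and 1 in Dusp5+/+ cells (Pdia3). The shares of all genes that fell there were 40.7% and 35.2%. Without a block, Pdia3 passed in Dusp5-/- cells without the untreated array or all of Dusp5+/+ mouse 3 (adjusted p of 0.00925 to 0.0322) and in Dusp5+/+ cells without the IL-33 array of that mouse (0.0428). Canx passed in Dusp5-/- cells without Dusp5+/+ mouse 2 (0.0427) and in Dusp5+/+ cells without the untreated array of that mouse (0.0437). P4hb shows the scale of the shift beside the spread: 11.58, 11.25, 11.63, 11.28 and 11.29 in Dusp5-/- cells with IL-33, against 11.77, 11.51, 11.74, 11.61 and 11.62 untreated, and 11.66, 11.24, 12.20, 11.60 and 11.74 in Dusp5+/+ cells with IL-33, against 11.91, 11.44, 12.33, 11.78 and 11.97 untreated. Dusp5+/+ mouse 3 had the highest and mouse 2 the lowest value of its genotype in both states, and the groups overlapped.

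Taking the 14 tested folding genes as 1 group, 2 were called lower and none higher in each genotype from the group means, where 33.2% of all genes were lower and 18.9% higher in Dusp5-/- and 26.7% and 16.1% in Dusp5+/+ cells. Blocking on the mouse gave 10 lower and 1 higher (Hspa5), the same genes in both genotypes, where 42.0% of all genes were lower and 23.5% higher in Dusp5-/- and 37.0% and 20.8% in Dusp5+/+ cells. With the mouse as a random effect 7 were lower in Dusp5-/- cells (40.7% of all genes) and 5 in Dusp5+/+ cells (35.2%), Canx and P4hb being called in Dusp5-/- cells alone, and none was higher. Their median change was -0.24 in Dusp5-/- and -0.19 in Dusp5+/+ cells. Rescaling each array to its median, or further quantile normalization, left 11 or 12 of the 14 below 0 in Dusp5-/- and 12 or 13 in Dusp5+/+ cells.

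Genes of ER-associated degradation moved in both directions. Edem2, a mannosidase-like protein that trims glycans to mark misfolded glycoproteins, fell. It read 7.93, 7.85, 7.84, 7.85 and 7.82 in Dusp5-/- cells with IL-33, against 8.48, 8.36, 8.41, 8.47 and 8.50 untreated. In Dusp5+/+ cells it read 8.16, 8.05, 8.07, 8.08 and 8.01 with IL-33, against 8.43, 8.41, 8.54, 8.43 and 8.33 untreated. Groups were fully apart, and the replicates were among the tightest of the array. The change was -0.58 ± 0.05 in Dusp5-/- (adjusted p = 2.1e-08) and -0.35 ± 0.05 in Dusp5+/+ cells (adjusted p = 2.3e-05). Edem1, its relative, changed by 0.14 ± 0.06 and 0.08 ± 0.06 in the same order and was not called (adjusted p = 0.0533 and 0.282). In Dusp5-/- cells it passed with mouse as a block, fixed (adjusted p = 0.0295) or random (0.0118).

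Derl2, one of the derlins that form the exit channel, rose. It stood at 9.38, 9.24, 9.38, 9.46 and 9.34 in Dusp5-/- cells with IL-33, against 9.26, 9.13, 9.22, 9.23 and 9.22 untreated. The Dusp5+/+ arrays read 9.44, 9.45, 9.34, 9.41 and 9.29 with IL-33, against 9.11, 9.19, 9.09, 9.11 and 9.12 untreated. The groups overlapped slightly in Dusp5-/- and were apart in Dusp5+/+ cells, with the IL-33 array the higher one in all 10 mice. The rise was 0.15 ± 0.05 in Dusp5-/- (adjusted p = 0.0291) and 0.26 ± 0.05 in Dusp5+/+ cells (adjusted p = 5.9e-04). The Dusp5-/- call was lost without the untreated array of mouse 2, the IL-33 array of mouse 1, 3 or 4, or all of mouse 1, 3, 4 or 5 of that genotype (adjusted p of 0.0509 to 0.1004). Derl1 changed by -0.19 ± 0.12 in Dusp5-/- and -0.19 ± 0.12 in Dusp5+/+ cells, was lower in 10 of 10 mice and passed with the block (adjusted p = 0.0085 and 0.01). Derl3 varied widely and was not called, at 4.94 to 5.45 in Dusp5-/- cells with IL-33, against 5.03 to 5.48 untreated, and 5.10 to 6.59 in Dusp5+/+ cells with IL-33, against 4.98 to 6.16 untreated.

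Syvn1 (Hrd1), the ubiquitin ligase at the centre of the degradation complex, ran at 7.44 to 7.66 in Dusp5-/- cells with IL-33, against 7.61 to 7.89 untreated. It ran at 7.37 to 7.66 in Dusp5+/+ cells with IL-33, against 7.65 to 7.93 untreated. A change of -0.24 ± 0.07 passed in Dusp5+/+ cells (adjusted p = 0.0121) except without mouse 2 of that genotype (adjusted p = 0.0574). In Dusp5-/- cells the change was -0.17 ± 0.07 (adjusted p = 0.0556) and passed with the block (adjusted p = 0.0144), or without the untreated array of Dusp5-/- mouse 4 or 5 or of Dusp5+/+ mouse 4, the IL-33 array of Dusp5-/- mouse 3 or Dusp5+/+ mouse 2, or all of Dusp5-/- mouse 4 (adjusted p of 0.0369 to 0.0493). Sel1l, the adaptor of Hrd1, changed by 0.31 ± 0.13 in Dusp5-/- and 0.05 ± 0.13 in Dusp5+/+ cells, Herpud1 by 0.05 and 0.03, and Selenos, which recruits the VCP ATPase, by 0.16 ± 0.14 and 0.00 ± 0.14. None of these passed from the group means, and Sel1l and Selenos passed with the block in Dusp5-/- cells (adjusted p = 0.0138 and 0.0141). With the mouse as a random effect Sel1l passed and Selenos did not (0.009 and 0.11).

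In the translocation machinery, Ssr3, a subunit of the translocon-associated protein complex, fell to 11.20, 10.92, 11.16, 10.89 and 11.12 in Dusp5-/- cells with IL-33, against 11.35, 11.20, 11.42, 11.23 and 11.29 untreated. The Dusp5+/+ arrays had 11.30, 10.96, 11.36, 11.20 and 11.20 with IL-33, against 11.38, 11.22, 11.55, 11.38 and 11.45 untreated. It was lower after IL-33 in all 10 mice, while the groups overlapped. The change passed in Dusp5-/- (-0.24 ± 0.08, adjusted p = 0.0217) and not in Dusp5+/+ cells (-0.19 ± 0.08, adjusted p = 0.0716). The Dusp5-/- call was lost without the untreated array of mouse 3, the IL-33 array of mouse 2 or 4, or all of mouse 2, 3 or 4 of that genotype (adjusted p of 0.0518 to 0.0654), and with the block the Dusp5+/+ value passed (adjusted p = 0.00387), as it did without the untreated array of Dusp5+/+ mouse 2 or the IL-33 array of mouse 3 (0.0317 and 0.0400). Its partner Ssr1 changed by -0.24 ± 0.13 in Dusp5-/- and -0.31 ± 0.13 in Dusp5+/+ cells and passed in both with the block (adjusted p = 0.00423 and 8.1e-04). Sec61a1, the pore of the channel, went the other way, by 0.24 ± 0.10 and 0.19 ± 0.10 in the same order, and had an adjusted p with the block of 0.0225 in Dusp5-/- and 0.06 in Dusp5+/+ cells. As a random effect, the mouse let both pass (0.0133 and 0.0441). Hyou1 had group means of 3.30 in Dusp5-/- cells with IL-33, 3.35 in untreated Dusp5-/- cells, 3.44 in Dusp5+/+ cells with IL-33 and 3.26 in untreated Dusp5+/+ cells, below the brightness filter of 3.56 to 3.68.

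Loss of Dusp5 by itself gave no called member in untreated cells, where 0.0255% of all genes were called (0.0170% higher and 0.00850% lower in Dusp5-/- cells). Of the 33, 3 had an unadjusted p under 0.05 in limma (Atf4, Derl1 and Sec61a1), and the lowest adjusted p was 0.383. Atf4 differed by -0.50 ± 0.23, lower in Dusp5-/- cells, and Derl1 and Sec61a1 by 0.29 ± 0.12 and 0.29 ± 0.10, higher in Dusp5-/- cells. No member had Dusp5-/- and Dusp5+/+ arrays apart, against 1.10% of all genes.

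After IL-33, 1 of the 33 differed between genotypes, against 2.21% of all genes (0.986% higher and 1.22% lower in Dusp5-/- cells). The member was Edem2, lower in Dusp5-/- cells with a difference of -0.21 ± 0.05 (adjusted p = 0.0449), and its 5 Dusp5-/- arrays at 7.82 to 7.93 lay below its 5 Dusp5+/+ arrays at 8.01 to 8.16. It was the 1 member with groups apart there, against 3.32% of all genes. Over all genes, 116 were called higher and 144 lower in Dusp5-/- cells, and the split turned to 151 and 72 after quantile normalization and to 93 and 68 after median centring. Untreated, Edem2 differed by 0.02 ± 0.05, and the difference of its IL-33 responses was -0.23 ± 0.08 (adjusted p = 0.785). The call sat at the threshold. It held in 7 of 30 fits that left out 1 array or mouse (without the Dusp5+/+ untreated array of mouse 2 or 3, the Dusp5-/- untreated or IL-33 array of mouse 1, the Dusp5+/+ IL-33 array of mouse 2, Dusp5-/- mouse 1 or Dusp5+/+ mouse 2) and was lost in 23, at adjusted p of 0.0516 to 0.150. Next in order were Sel1l (0.43 ± 0.13, adjusted p = 0.0781), Sec61a1 (0.33 ± 0.10, 0.0795) and Eif2ak3 (-0.21 ± 0.07, 0.0893), not called. Sel1l and Sec61a1 passed without Dusp5+/+ mouse 2 (adjusted p = 0.0103 and 0.00933), when 3 members were higher and 5 lower in Dusp5-/- cells. They passed as well without the IL-33 array of that mouse (0.0222 and 0.0156), and Sel1l without the untreated array of Dusp5+/+ mouse 3 (0.0452). No member was called for the difference of the IL-33 responses, where 0% of all genes were called. Of the members 1, Edem2, had an unadjusted p under 0.05 in that comparison, and none was called with each mouse as a block.

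All 14 tested folding genes averaged lower in Dusp5-/- than in Dusp5+/+ cells, untreated (-0.38 to -0.02, median -0.24) and after IL-33 (-0.41 to -0.06, median -0.25), beside medians of -0.00 and -0.03 over all genes. From the group means none of the 14 was called in either state, and none had an unadjusted p under 0.05. With the mouse as a random effect none was called, 4 had an unadjusted p under 0.05 after IL-33 and none untreated. The 14 values come from the same 10 mice and move together, so their shared sign is 1 observation. All 14 stayed below 0 after median centring and after quantile normalization. The median depended on single mice: without Dusp5+/+ mouse 3 it was -0.12 untreated and -0.15 after IL-33, and without Dusp5+/+ mouse 2 it was -0.36 and -0.38, with 3 of the 14 called lower after IL-33 (Calr, P4hb and Pdia6, at adjusted p of 0.0411 to 0.0447). The share of all genes called without that mouse is not given, so the 3 calls cannot be set against it. Beside the 14 folding genes, the 15 tested proliferation genes had median genotype differences of -0.72 untreated and -0.86 after IL-33, none called. Their part in the folding gene difference was not tested.

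As a description with no test, the folding genes varied more between mice than the other members did. The within-group SD, pooled over the 4 groups, had a median of 0.335 for the 14 folding genes, 0.128 for the other 19 members and 0.166 over all genes tested. Of the 14, 8 lay above the 90th percentile of all genes: Hspa5 (0.453), Creld2 (0.450), Sdf2l1 (0.389), Pdia6 (0.385), Calr (0.373), Pdia4 (0.363), Hsp90b1 (0.338) and Manf (0.331). Atf4 (0.395) and Derl3 (0.394) did too. At the other end, Edem2 (0.0592), Derl2 (0.0610), Ppp1r15a (0.0675), Edem1 (0.0722), Dnajb9 (0.0829), Herpud1 (0.0917) and Eif2ak3 (0.0971) lay under the 10th percentile.

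For the folding genes, the IL-33 change within a mouse varied less than the level between mice. The SD of the within-mouse IL-33 change over 10 mice had a median of 0.0890 for the folding genes, 0.107 for the other members and 0.165 for all genes. For Hspa5 this SD was 0.0792 beside a within-group SD of 0.453, and for Creld2 it was 0.0821 beside 0.450. The median ratio of the 2 SDs was 0.294 in the folding group, 0.928 in the other members and 1.06 over all genes. A difference of 2 unrelated arrays has a wider SD than a single array. Equal SDs therefore do not mean that the 2 arrays of a mouse shared no level. Hsp90b1 (0.191) and Canx (0.152) had the widest within-mouse changes among the 14.

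**Figure D4:**
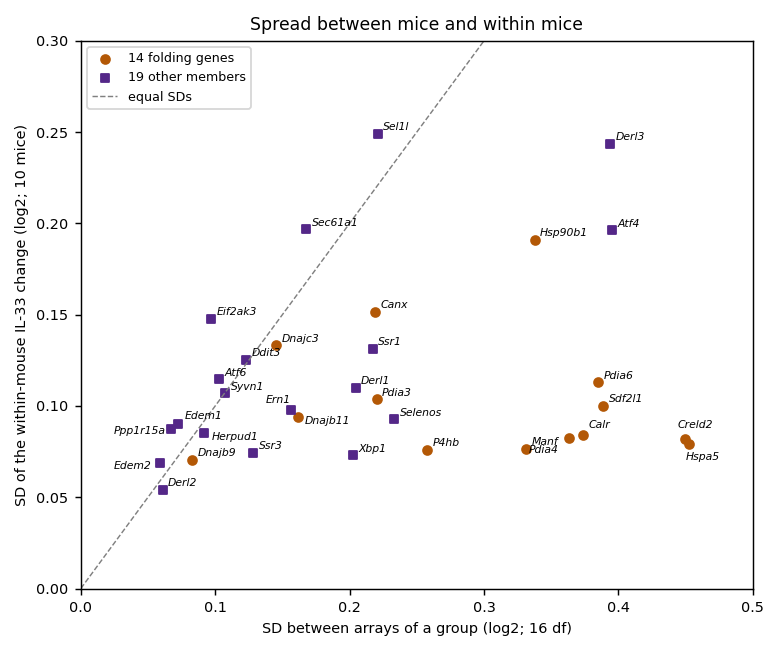
SD between arrays of a group (x axis, log2) against SD of the within-mouse IL-33 change (y axis, log2) for the 33 ER genes. Folding genes are orange circles, the other members purple squares, and the dashed line marks equal SDs. Unrelated arrays would lie above that line, since a difference has a wider SD than a single array. Hspa5, Creld2, Calr, Pdia4, Manf and P4hb lie far below the line, while Edem2, Derl2, Dnajb9 and Ddit3 lie near it.

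The same mice were high or low for gene after gene. Averaged over the 14 folding genes, the deviation from the group mean in Dusp5-/- cells was 0.22, -0.30, 0.28, -0.14 and -0.06 with IL-33 for mice 1 to 5, and 0.17, -0.28, 0.23, -0.10 and -0.02 untreated. In Dusp5+/+ cells it was 0.07, -0.43, 0.42, -0.06 and -0.00 with IL-33, and 0.05, -0.45, 0.47, -0.08 and 0.02 untreated. Mouse 2 of the Dusp5-/- genotype was the lowest of its group for 12 of the 14 genes with IL-33 and 13 untreated, and mouse 3 the highest for 8 and 9. Mouse 2 of the Dusp5+/+ genotype was the lowest for 13 and 14, and mouse 3 the highest for 12 and 13. The mouse averages with and without IL-33 differed by far less than the mice did. Over the other 19 members the mouse averages ran from -0.08 to 0.09.

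**Figure D5:**
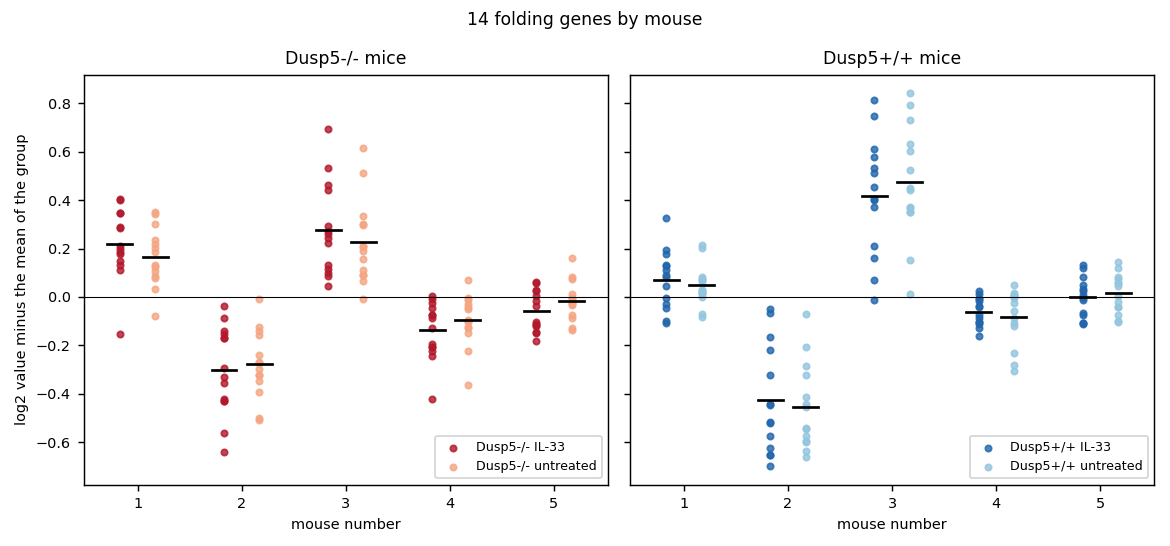
Deviation of each of the 14 folding genes from its group mean (y axis, log2) by mouse number, Dusp5-/- mice on the left and Dusp5+/+ mice on the right. Within a mouse, IL-33 is the darker column left of the untreated one, each dot is a gene and the bar is the mean of the 14. Mouse 2 is low and mouse 3 high in both genotypes and both treatments.

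Other gene lists were set beside these mouse averages, taken over both arrays of a mouse. The folding average was 0.19, -0.29, 0.25, -0.12 and -0.04 in Dusp5-/- mice 1 to 5 and 0.06, -0.44, 0.45, -0.07 and 0.01 in Dusp5+/+ mice. The 15 proliferation genes stood at 0.69, -0.39, 0.09, -0.37 and -0.02 in Dusp5-/- and 0.11, -0.95, 0.63, -0.16 and 0.37 in Dusp5+/+ mice, so they too were low in mouse 2 of each genotype and high in Dusp5+/+ mouse 3. The 26 known targets of ATF4 and CHOP stood at 0.24, -0.22, 0.21, -0.13 and -0.09 in Dusp5-/- and 0.11, -0.33, 0.20, -0.07 and 0.09 in Dusp5+/+ mice. Single targets were split: Dusp5+/+ mouse 3 was the highest for 12 and the lowest for 9 with IL-33, and for 11 and 10 untreated. Folding genes outside the members were also lowest in mouse 2 of each genotype and highest in Dusp5+/+ mouse 3. Among Dusp5-/- mice they were highest in mouse 1, and the member folding genes in mouse 3. The 23 tested stood at 0.08, -0.11, 0.06, -0.04 and 0.01 in Dusp5-/- and 0.01, -0.20, 0.21, -0.04 and 0.02 in Dusp5+/+ mice. The 22 other genes of translocation and glycosylation stood at 0.11, -0.14, 0.10, -0.06 and -0.01 in Dusp5-/- and 0.06, -0.21, 0.20, -0.04 and -0.01 in Dusp5+/+ mice. The 8 eosinophil markers varied little, from -0.09 to 0.08. The 13 neutrophil and promyelocyte markers varied more, with Dusp5+/+ mouse 3 at 0.46 and Dusp5-/- mouse 1, where the folding genes were high, at -0.31. The 14 monocyte, macrophage and dendritic cell markers stood at -0.17, 0.11, -0.34, 0.15 and 0.26 in Dusp5-/- and 0.08, 0.27, -0.11, -0.00 and -0.24 in Dusp5+/+ mice, above the group mean in mouse 2 and below it in mouse 3 of each genotype, where the folding genes were low and high. The 9 stem and progenitor markers ran from -0.26 to 0.32, the 7 B and plasma cell markers from -0.17 to 0.22 and the 8 mast cell and basophil markers from -0.12 to 0.15. The part of cell division or of other cells in the spread of the folding genes was not tested.

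Several of the folding genes with the widest spread carry a known element in their promoters, and its copies are printed so that the sequences can be seen beside those values. The ER stress element, bound by cleaved ATF6 with NF-Y, reads CCAAT, then 9 bases, then CCACG. RefSeq promoters (build GRCm38.p6, from 250 bases before to 50 after the start) were at hand for 30 of the 35 genes. On either strand 9 of the 30 held the element, whereas 0.119% of the 32851 promoters in the table did. These genes were picked as ER stress genes, so the match describes the choice of genes and is no result of the arrays. The windows run 15 bases to each side of the element, 5′ to 3′ on the strand on which it reads CCAAT first, with CCAAT and CCACG in capitals.
Hspa5, chr2:34772010-34772058, plus strand: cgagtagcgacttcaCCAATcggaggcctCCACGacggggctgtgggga
Hsp90b1, chr10:86705623-86705671, minus strand: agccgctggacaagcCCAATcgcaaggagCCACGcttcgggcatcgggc
Hsp90b1, chr10:86705518-86705566, plus strand: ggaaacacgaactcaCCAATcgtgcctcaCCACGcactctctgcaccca
Creld2, chr15:88819505-88819553, minus strand: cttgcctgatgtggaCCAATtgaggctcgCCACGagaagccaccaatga
Dnajc3, chr14:118937812-118937860, plus strand: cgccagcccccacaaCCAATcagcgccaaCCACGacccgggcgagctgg
Calr, chr8:84847060-84847108, plus strand: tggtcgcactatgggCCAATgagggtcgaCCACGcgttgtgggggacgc
Canx, chr11:50325785-50325833, minus strand: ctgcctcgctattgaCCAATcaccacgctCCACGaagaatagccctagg
Pdia6, chr12:17266476-17266524, plus strand: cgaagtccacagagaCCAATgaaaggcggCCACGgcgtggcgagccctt
Derl3, chr10:75893227-75893275, minus strand: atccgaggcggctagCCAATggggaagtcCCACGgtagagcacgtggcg
Syvn1, chr19:6046517-6046565, plus strand: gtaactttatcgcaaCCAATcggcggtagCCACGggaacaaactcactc

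In Hspa5 the element began 65 bases before the start and in Hsp90b1 the copies began 212 and 107 bases before it. Syvn1 had the copy nearest the start, from 44 to 26 bases before it, and the copies of Calr, Creld2 and Derl3 and the nearer one of Hsp90b1 ran on the strand opposite to the gene. The 9 genes with the element had a median within-group SD of 0.373, with 6 above the 90th percentile, and 1 called with IL-33 in Dusp5-/- and 2 in Dusp5+/+ cells, where 52.2% and 42.7% of all genes were called. Near copies of the element were not searched. The 20 tested members whose promoter held no exact copy had a median SD of 0.159, with 3 above the 90th percentile, and 9 and 7 called. This is a description of 29 genes chosen with these results known, and the letters say nothing of whether a factor was bound.

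Hspa5 is shown over all 250 bases before its start because BiP had the widest spread of the members and was the only folding gene higher with IL-33 in 10 of 10 mice. The stretch lies at chr2:34771840-34772089 on the plus strand, with the ER stress element in capitals.
Hspa5: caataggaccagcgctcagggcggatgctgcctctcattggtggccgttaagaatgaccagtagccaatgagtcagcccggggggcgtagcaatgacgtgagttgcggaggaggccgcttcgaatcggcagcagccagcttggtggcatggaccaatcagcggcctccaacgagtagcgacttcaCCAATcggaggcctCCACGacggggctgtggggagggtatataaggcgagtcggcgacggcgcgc
The stretch held 4 matches to CCAAT on both strands, that of the element included, and the 1 match to CCACG is that of the element. The 250 bases before Eif2ak3, which changed most with IL-33 among the 33 members, held 6 matches to CCAAT and 0 to CCACG.

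The ER stress element II (ATTGG, 1 base, CCACG) was found in 2 promoters, those of Dnajb11 and Herpud1, and in 0.0365% of all. In Herpud1, whose product organises the degradation complex, it lay 52 to 42 bases before the start, and the capitals mark ATTGG and CCACG.
Herpud1, chr8:94386362-94386402, plus strand: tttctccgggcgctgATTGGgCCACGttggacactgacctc
Herpud1 also held the amino acid response core TGATGCAA, the kind of site that ATF4 binds, found in 0.895% of all promoters. No member promoter held TGACGTGG, the only form of the unfolded protein response element core that was searched (0.676% of all promoters). The Hspa5 stretch above holds TGACGTGA, which differs from it in the last base, so other forms of this core may be present. The short motif CCACG, which is part of both ER stress elements, was in 25 of the 30 and in 32.8% of all. Herpud1 and Dnajb11 stayed within their spread with IL-33 in both genotypes, as given above.

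Genes around these members were read from lists of the pathway. Of 23 other tested folding genes, 1 rose and 9 fell with IL-33 in Dusp5-/- cells, and 1 rose and 7 fell in Dusp5+/+ cells. The gene that rose was Ero1a, the oxidase that recharges protein disulfide isomerases, by 2.48 ± 0.14 in Dusp5-/- (adjusted p = 1.3e-11) and 2.16 ± 0.14 in Dusp5+/+ cells (adjusted p = 1.5e-10). Its level was 11.53 ± 0.23 (SD, n = 5) in Dusp5-/- cells with IL-33 and 9.06 ± 0.30 in untreated Dusp5-/- cells, and 11.25 ± 0.18 and 9.09 ± 0.20 in Dusp5+/+ cells with IL-33 and untreated. Among those that fell were Cnpy2 (-0.58 in Dusp5-/- and -0.53 in Dusp5+/+ cells) and the lumenal chaperone Erp29 (-0.55 and -0.49). The list medians were -0.14 and -0.20.

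Of 20 other degradation genes, 3 rose and 8 fell in each genotype, with list medians of -0.07 in both. The lectin Erlec1 fell by 0.63 in Dusp5-/- and 0.49 in Dusp5+/+ cells, and Ngly1, which strips glycans from retrotranslocated proteins, fell by 0.63 and 0.54. Of 22 other genes of translocation and glycosylation, 1 rose and 5 fell in Dusp5-/- and 1 rose and 3 fell in Dusp5+/+ cells. Tusc3, a subunit of the oligosaccharyltransferase, fell by 0.59 and 0.42 in that order. Of 8 genes of ER calcium pumps and channels, 1 rose and 5 fell in each genotype. The calcium pump gene Atp2a2 rose by 0.83 ± 0.11 in Dusp5-/- and 0.75 ± 0.11 in Dusp5+/+ cells, and the release channel genes Itpr2 (-0.68 and -0.73) and Itpr3 (-0.57 and -0.70) fell.

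Of 19 other regulators of the unfolded protein response, 7 rose and 4 fell in Dusp5-/- and 5 rose and 6 fell in Dusp5+/+ cells. Cebpb, a partner of CHOP, rose by 1.09 ± 0.08 in Dusp5-/- and 1.03 ± 0.08 in Dusp5+/+ cells. Eif2ak1, the heme-regulated kinase that also phosphorylates eIF2 alpha, fell like Eif2ak3, by 0.95 and 0.75. Creb3l2, an ER-bound factor of secretory cells, rose by 0.86 ± 0.16 in Dusp5-/- cells, with group means of 6.87 in Dusp5+/+ cells with IL-33 and 6.30 untreated. The ER membrane protein gene Wfs1 fell by 0.77 in Dusp5-/- cells, with group means of 5.56 in Dusp5+/+ cells with IL-33 and 6.04 untreated.

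Of 26 targets of ATF4 and CHOP, 6 rose and 8 fell in Dusp5-/- and 6 rose and 5 fell in Dusp5+/+ cells. The cystine transporter gene Slc7a11 rose by 1.84 ± 0.15 in Dusp5-/- and 1.59 ± 0.15 in Dusp5+/+ cells, Bcl2l11 (BIM) by 2.02 ± 0.13 and 1.63 ± 0.13, and Sqstm1 by 0.88 and 1.06. Bbc3 (PUMA) fell by 1.18 and 1.05. Between genotypes 1 of the 26 was called, Bcl2l11 after IL-33, higher in Dusp5-/- cells by 0.78 ± 0.13 (adjusted p = 0.00807), where 2.21% of all genes were called. Of 22 genes of ER exit, 4 rose and 3 fell in each genotype, led by Sar1a, the GTPase of the COPII coat, at 0.80 ± 0.08 and 0.69 ± 0.08. Of 14 cytosolic heat shock genes, 6 rose and 1 fell in Dusp5-/- and 3 rose and 1 fell in Dusp5+/+ cells, among them Hspa1b, the inducible cytosolic Hsp70, at 0.69 ± 0.10 and 0.59 ± 0.10. For each list, 52.2% of all genes in Dusp5-/- and 42.7% in Dusp5+/+ cells are the shares called for comparison.

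Markers of other cells that such cultures can hold were read in the same way. Of 8 tested eosinophil markers, 1 rose and 3 fell with IL-33 in each genotype. Of 13 neutrophil and promyelocyte markers, 1 rose and 2 fell in Dusp5-/- and 1 rose and 1 fell in Dusp5+/+ cells, and their mean level per array ran from 8.61 to 9.27 in Dusp5-/- cells with IL-33, 8.76 to 9.58 in untreated Dusp5-/- cells, 8.66 to 9.41 in Dusp5+/+ cells with IL-33 and 8.86 to 9.41 in untreated Dusp5+/+ cells. Of 14 monocyte, macrophage and dendritic cell markers, 3 rose and 6 fell in Dusp5-/- and 3 rose and 3 fell in Dusp5+/+ cells. Of 8 mast cell and basophil markers, 1 rose and 2 fell in Dusp5-/- and 1 rose and 3 fell in Dusp5+/+ cells. Of 7 B and plasma cell markers, 2 rose and 2 fell in Dusp5-/- and 3 rose and 2 fell in Dusp5+/+ cells. Of 9 stem and progenitor markers, none rose and 6 fell in Dusp5-/- and 4 fell in Dusp5+/+ cells, and of 15 proliferation genes none rose and 4 and 3 fell in that order. Among all genes 18.9% rose and 33.2% fell in Dusp5-/- and 16.1% rose and 26.7% fell in Dusp5+/+ cells. Between genotypes 1 marker was called, the progenitor factor gene Hoxa9, lower in Dusp5-/- cells after IL-33 by 0.58. Of all genes 2.21% were called in that comparison. The part of these markers in the ER gene values was not tested.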

How the data were processed

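The deposited values are log2 expression per probe set, taken from a one-colour Affymetrix array hybridised with biotin-labelled cRNA per the labels' protocols; how the authors corrected, summarised and normalized them, and the upstream filter that left 20630 probe sets, is not stated in the sources used here. Array medians were 4.25 to 4.32 and correlations within a group 0.987 to 0.997, and precision is limited by having 5 arrays a group.

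Of the probe sets, 17826 carried 1 gene symbol in the platform annotation, 91 several and 2711 none, and 2 were controls. A gene with several probe sets took the one with the highest mean. Genes above the 40th percentile of their array (3.56 to 3.68) on at least 5 arrays were tested, by fitting 4 group means with lmFit and eBayes (limma 3.58.1, R 4.3.3, 16 residual degrees of freedom), and p-values were Benjamini-Hochberg adjusted over all 11766. The fit of group means was also run on simulated data with independent arrays. That run did not cover the pairing by mouse or the fits with a block. Figures and summaries used Python 3.11.15, pandas 2.3.3, numpy 2.4.6 and matplotlib 3.10.9. Per-array SDs were pooled over the groups, and motifs were matched by letters on both strands of RefSeq promoters.

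As a check of pairing, same-numbered IL-33 and untreated arrays within a genotype were compared by their deviations from the group means, with r of 0.262 to 0.783, and 10 of 10 pairs correlated best with their own number; the pairing rests on this and on the 5 mice per genotype in the series text. Between genotypes, the same number had r of 0.173 to 0.601 for mice 1 to 3, and of -0.181 to 0.113 for mice 4 and 5, so it was not taken to pair mice of different genotypes. With mouse as a random block (statmod 1.5.0) the correlation was 0.464. The alternatives were other brightness filters, further quantile normalization or median centring, only the compared groups, trended and robust eBayes, the blocks, the mean of a gene's probe sets, array weights, and leaving out each array or mouse.

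The members, the 15 gene lists and the tests were chosen with earlier results of these data known. Members called anywhere, the sensors and the transcription factors are given with values, and of each list only genes among the 4 called with the largest change. Probe sets of 3 members (Hspa5, Dnajc3 and Xbp1) can bind several transcripts and those of 4 (Calr, Selenos, Ssr3 and Atf4) can cross-bind unrelated ones, going by the array maker's suffixes.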

Additional observations from a re-analysis of the deposited data

Results flagged for a closer look

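Dixon's test was run on the 5 arrays of each group for 34 genes, 136 groups in all, and 5 had an array farther from the others than the critical value of 0.71 allows; chance gives about 1 in 20. Sdf2l1 was highest in Dusp5+/+ IL-33 mouse 3, at 9.82, against 8.91 on the next array. Derl3 was highest on the same array, at 6.59, against 5.52 on the next. Edem1 was lowest on that array too, at 9.52, against 9.60 on the next. Edem2 was highest in Dusp5-/- IL-33 mouse 1, at 7.93, against 7.85 on the next, and Derl2 was highest in Dusp5+/+ untreated mouse 2, at 9.19, against 9.12 on the next.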

How the results depend on the processing

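From the group means, 5 members were higher and 6 lower with IL-33 in Dusp5-/- cells and 4 and 6 in Dusp5+/+ cells. Leaving out 1 array or mouse gave 3 to 7 higher and 5 to 8 lower in Dusp5-/-, and 4 to 5 higher and 6 to 10 lower in Dusp5+/+ cells. The shares of all genes called in those fits are not given. The higher count in Dusp5-/- cells was 3 with no filter on dim genes, 8 after quantile normalization (beside 6 lower) and 3 after median centring (beside 7 lower). Among all genes it was 2505 of 17771 with no filter. Quantile normalization gave 2675 higher and 3224 lower of 11766, and centring 2110 and 4048. Dusp5-/- lower counts were 10 with only the groups compared and 10 with array weights, and the Dusp5+/+ lower count was 11 with array weights. Of all 11766 genes 3963, 4159 and 3485 were lower, in that order. With each mouse as a fixed replicate block the counts were 10 higher and 17 lower in Dusp5-/- cells and 17 lower in Dusp5+/+ cells, with a random block 8, 14 and 12. The number shared across genotypes, which correlated for mice 1 to 3 and not for 4 and 5, gave 10 higher and 13 lower in Dusp5-/- and 10 lower in Dusp5+/+ cells as a block. Of all 11766 genes that block called 2511 higher and 4470 lower in Dusp5-/- and 3776 lower in Dusp5+/+ cells.

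Between untreated genotypes no member was called except with that shared number (4 lower) and with array weights (1 higher and 1 lower), and leaving out an array or mouse gave 0 to 0. After IL-33 the 1 lower member, Edem2, was lost with no filter (0), quantile normalization (0), centring (0) and only the groups compared (0). Array weights gave 3 higher and 2 lower, the shared number 3 higher and 9 lower (of the 14 folding genes 7 lower then and 3 untreated), and leaving out an array or mouse 0 to 3 higher and 0 to 5 lower. There 1 was higher without Dusp5+/+ untreated array 3 and 3 without the Dusp5+/+ IL-33 array of mouse 2 or all of that mouse. The lower count was 2 without the Dusp5+/+ IL-33 array of mouse 2, the Dusp5-/- IL-33 array of mouse 1 or all of Dusp5-/- mouse 1, and 5 without Dusp5+/+ mouse 2. The shares of all genes called with an array or mouse left out are not given. The difference of the IL-33 responses called no member in any alternative (0 to 0). Over all genes, the genotype comparison after IL-33 called 116 higher and 144 lower, against 690 and 1631 with array weights, 570 and 1617 with the shared number, 175 and 339 with a random block, 165 and 279 at the 60th percentile, 93 and 68 after centring, 151 and 72 after quantile normalization, 85 and 67 with no filter and 20 and 4 with only the groups compared. Untreated, it called 2 and 1, against 599 and 868 with array weights and 266 and 540 with the shared number. The cause of these shifts was not tested.

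The signs that turned were of small changes that were not called. With IL-33, Creld2 was 0.051 in Dusp5-/- and 0.014 in Dusp5+/+ cells after quantile normalization, and Xbp1 was -0.025 after centring and -0.043 with array weights in Dusp5+/+ cells. Leaving out an array or mouse, the IL-33 change in Dusp5-/- cells ranged from -0.16 to 0.13 for Creld2, -0.16 to 0.068 for Manf and -0.11 to 0.032 for Xbp1. In Dusp5+/+ cells it ranged from -0.32 to 0.053 for Calr, -0.20 to 0.13 for Creld2, -0.064 to 0.0799 for Dnajb11, -0.15 to 0.12 for Manf, -0.36 to 0.0032 for Pdia6 and -0.075 to 0.0704 for Xbp1. The genotype difference ranged from -0.035 to 0.0033 for Dnajb9 and -0.0085 to 0.046 for Edem2 untreated, and -0.33 to 0.049 for Atf4 after IL-33. For called single genes, the settings that left no array out kept the call in 230 cases and lost it in 11, always in the same direction, and those that left out an array or mouse kept it in 598 and lost it in 62. Among genes not called, 74 and 31 gained a call in these 2 kinds of setting.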
